A study of Mus musculus with 6 samples.

Results

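The BCL2 family decides whether a cell opens the outer membrane of its mitochondria and dies by apoptosis. Its 10 members with a row in the deposited count table, chosen by name, are described here out of 25189 gene symbols. They fall into 3 roles: the pro-survival genes Bcl2, Bcl2l1 and Mcl1, the effector genes Bax and Bak1, and the BH3-only genes Bcl2l11, Bid, Bad, Pmaip1 and Bbc3. Gene expression was compared between 3 libraries from ischaemia and reperfusion (I/R), in which blood flow to an organ is cut off and then returned, and 3 libraries from I/R with chemerin-9, a peptide agonist of the chemerin receptor CMKLR1. The labels give the same background for all 6: kidney, taken on day 2, from male C57BL/6 wild-type animals. The treated columns of the table are headed IC, read here as I/R with C9 (chemerin-9), a reading that could not be checked against the labels. By the labels both groups carried the injury, and uninjured kidney was not analysed here. No label ties a library to its own animal, and p-values therefore speak only of library-to-library spread, possibly technical.

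In a healthy cell the pro-survival proteins hold the effectors and the BH3-only proteins in check. Stress raises or activates BH3-only proteins, which occupy the groove of the pro-survival proteins or engage the effectors directly. Freed BAX and BAK then assemble into pores, cytochrome c leaves the mitochondrion, and the APAF1 apoptosome activates caspase-9 and the caspases after it. In the kidney, tubular cell death after ischaemia has long been studied through this family. The counts here are of RNA, whereas much of the family's control lies in protein turnover, cleavage and phosphorylation.

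The libraries held 11217252 to 16938301 counts. Chi-square values per degree of freedom between libraries of a group were 1.80 to 5.61, above sampling noise, and the 2 highest, 5.14 and 5.61, involved I/R replicate 3. Of 13 nephron markers, 7 had a row, and their summed level was 36.6 to 38.8 CPM (counts scaled to a common library size) in I/R and 38.5 to 46.1 CPM with chemerin-9, most of it from Aqp1 and Podxl. The 2 endothelial and 3 leukocyte markers with a row summed to at most 1.33 and 6.44 CPM, and the haemoglobin gene Hbb-bs was at 0 in every library. Of 2 markers of injured tubule, Havcr1 had no row and Lcn2 was at no more than 1.92 CPM in any library. With no uninjured kidney to compare, the injury rests on the labels and was not tested. The 3 genes of dividing cells (Mki67, Top2a and Ccnb1) summed to 2940 to 3090 CPM in I/R and 2850 to 2950 CPM with chemerin-9, and 4 stromal genes to 1170 to 1240 and 1150 to 1200 CPM, so the defining markers of kidney epithelium were low against the label. Single markers differed between the groups: Pdgfrb was at 35.1 ± 2.75 CPM in I/R and 49.2 ± 1.98 with chemerin-9, Podxl at 12.5 ± 1.51 and 17.7 ± 1.14, Col1a2 at 398 ± 5.47 and 323 ± 3.19, and Mki67 at 1050 ± 22.4 and 938 ± 14.4. Others of the same lists did not follow them. Top2a was at 1750 ± 46.8 and 1760 ± 45.4 CPM, and Ccnb1 at 213 ± 4.75 and 215 ± 6.42. Col1a1 was at 771 ± 28.2 and 800 ± 20.5 CPM, and Aqp1 at 18.2 ± 0.201 and 17.7 ± 2.05. No list thus moved as a whole by these genes. The part of cell make-up in the results below was not tested, and in such bulk libraries fewer cells of a type and less RNA per cell cannot be told apart. Each library has its own batch value in the labels, so batch and treatment cannot be told apart either.

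To show the DNA in front of the members whose RNA changed most, the 250 bases before the transcription start are printed for the 2 that rose most and the 3 that fell (RefSeq, GRCm38.p6, read 5′ to 3′ on the gene's strand). Where RefSeq gives several starts, the one nearest the annotated 5′ end of the gene is shown, and no annotated exon lies in these 5 windows. Capitals mark matches to any of 10 motifs, searched on both strands and described after the sequences.
Bcl2, chr1:106714291-106714540, minus strand: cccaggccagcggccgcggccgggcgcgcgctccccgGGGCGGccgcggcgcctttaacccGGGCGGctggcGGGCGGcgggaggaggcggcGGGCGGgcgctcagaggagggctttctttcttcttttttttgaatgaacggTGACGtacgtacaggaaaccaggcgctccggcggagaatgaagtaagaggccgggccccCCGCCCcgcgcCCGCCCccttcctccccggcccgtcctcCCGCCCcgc
Bcl2l1, chr2:152831729-152831978, minus strand: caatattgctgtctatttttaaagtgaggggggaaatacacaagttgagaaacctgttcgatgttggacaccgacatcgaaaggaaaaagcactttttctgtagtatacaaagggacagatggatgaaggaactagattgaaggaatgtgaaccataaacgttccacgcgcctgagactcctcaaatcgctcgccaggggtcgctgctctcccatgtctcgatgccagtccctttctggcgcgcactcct
Bax, chr7:45466899-45467148, minus strand: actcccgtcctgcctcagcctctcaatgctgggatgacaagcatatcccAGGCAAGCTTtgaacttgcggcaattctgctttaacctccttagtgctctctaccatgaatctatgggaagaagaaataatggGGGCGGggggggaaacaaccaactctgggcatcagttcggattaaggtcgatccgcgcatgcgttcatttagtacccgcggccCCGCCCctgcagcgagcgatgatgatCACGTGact
Bcl2l11, chr2:128125788-128126037, plus strand: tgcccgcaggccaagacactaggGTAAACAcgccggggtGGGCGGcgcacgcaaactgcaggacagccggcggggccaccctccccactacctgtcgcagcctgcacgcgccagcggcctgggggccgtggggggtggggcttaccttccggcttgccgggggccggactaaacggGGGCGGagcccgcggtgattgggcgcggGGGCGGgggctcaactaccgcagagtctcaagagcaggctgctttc
Bbc3, chr7:16309333-16309582, plus strand: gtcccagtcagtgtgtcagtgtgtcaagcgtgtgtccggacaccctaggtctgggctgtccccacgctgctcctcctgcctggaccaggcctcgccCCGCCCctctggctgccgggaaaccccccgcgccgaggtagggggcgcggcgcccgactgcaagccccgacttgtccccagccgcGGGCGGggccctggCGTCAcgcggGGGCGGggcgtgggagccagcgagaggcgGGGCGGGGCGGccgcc

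The Bax window held a single p53 half-site (AGGCAAGCTT, bases 201 to 192 before the start), present in 7.13% of 32851 promoter windows of the same length, and an E-box (CACGTG, in 6.02% of windows). The Bcl2l11 window held a FOXO motif (GTAAACA, bases 227 to 221 before the start), which 3.17% of windows hold. The Bcl2 and Bbc3 windows each held 1 CRE half-site (TGACG, in 17.8% of windows), which also lies inside the full CRE, and neither held that longer motif (TGACGTCA, 1.55%). GC boxes (GGGCGG, in 32.7% of windows) numbered 7 in Bcl2, 5 in Bbc3, 3 in Bcl2l11 and 2 in Bax, and the base composition was 74.8%, 76.4%, 72.0% and 54.0% G or C. The Bcl2l1 window, at 47.6% G or C, held none of the 10 motifs. Matches to CHOP-ATF (TGATGNAA, 3.45% of windows), E2F (TTTCCCGC, 0.895%), AP-1 (TGANTCA, 6.75%) and the ISRE core of interferon response (2.98%) were absent from all 5 windows. A match is a string of letters and not a measured site.

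The pro-survival genes Bcl2 and Bcl2l1 rose with chemerin-9, and Mcl1, the most abundant, did not pass the test. Of the effectors, Bax fell and Bak1 did not pass. Among the BH3-only genes Bbc3 and Bcl2l11 fell, Bid rose, Bad did not pass and Pmaip1 was too low to test. In all, 9 of the 10 members passed the filter on low counts, and 6 of these changed at an adjusted p under 0.05 (edgeR), 3 higher and 3 lower. Across the 14184 genes tested 51.7% changed, 25.6% higher and 26.1% lower, so a count of 6 in 9 is near that background and says nothing particular about the family. A change of at least 1.5-fold was less common, at 15.9% of tested genes, and 3 members reached it (Bcl2, Bax and Bbc3). Bax did not reach it without I/R replicate 3 (log2 ratio -0.46) or with a trend over base composition and length taken out (-0.51), and in the latter setting Bcl2l1 did (0.60). The groups did not overlap for 6 of the 9 tested members, against 58.5% of all genes tested. The authors' deposited table gave an FDR under 0.05 to 6 members, and all 6 were also those of edgeR.

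**Figure D1:**
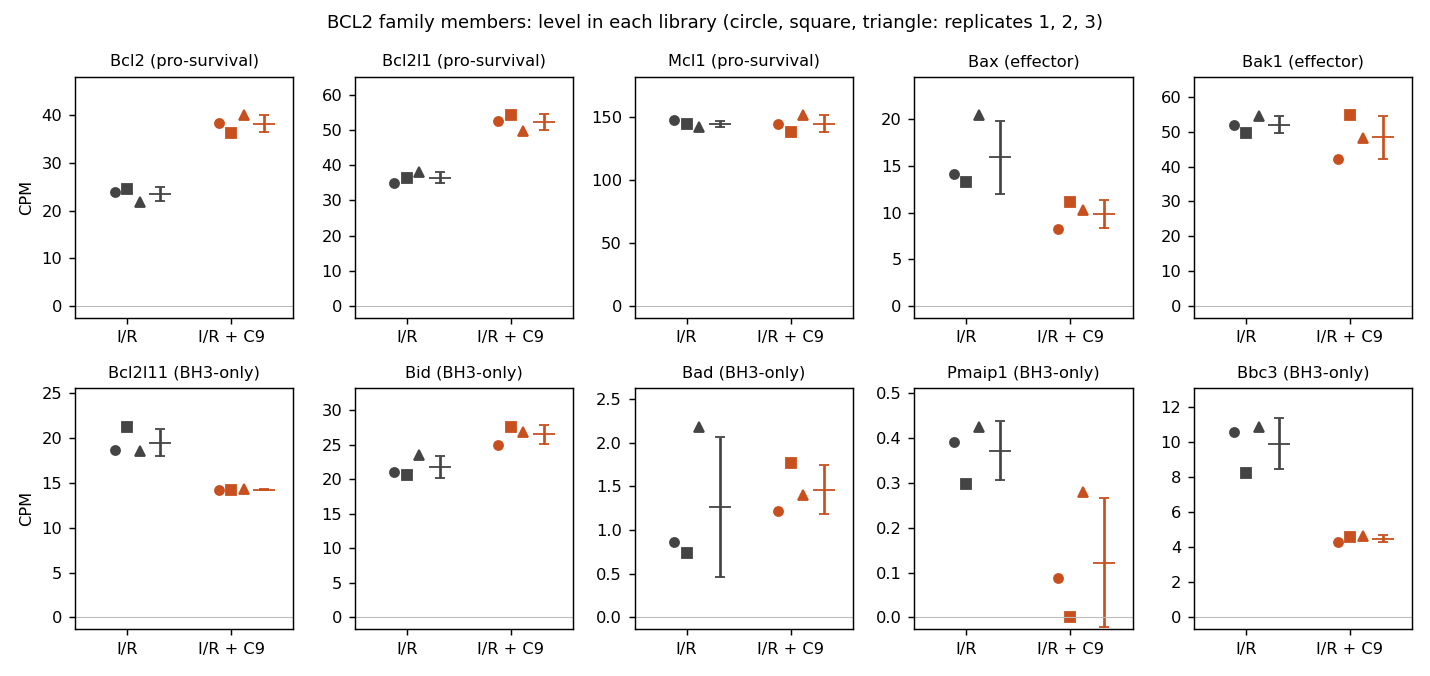
Level of each of the 10 members (CPM, linear axes with their own scale) in 3 I/R libraries (grey) and 3 libraries of I/R with chemerin-9 (orange, C9), with the mean and SD beside the points. Bcl2 and Bcl2l1 lie higher and Bax, Bcl2l11 and Bbc3 lower with chemerin-9 with no overlap, while the Mcl1 and Bak1 points overlap and 1 I/R library (triangle, replicate 3) stands high for Bax and Bad.

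Bcl2 encodes the founding pro-survival protein, which sits in the mitochondrial and endoplasmic reticulum membranes. Its level was 24.0, 24.5 and 21.9 CPM in I/R and 38.4, 36.3 and 40.0 CPM with chemerin-9. The lowest treated library was well above the highest I/R library. The mean rose from 23.5 ± 1.39 to 38.3 ± 1.85 CPM (SD, n = 3 each), or 1.63-fold. As a log2 ratio of treated over I/R this was 0.71 ± 0.075 (SE, edgeR adjusted p = 1.7e-06). This was the largest rise among the tested members, and the size of its change exceeded that of 86.3% of tested genes. The gene lies at chr1:106538178-106714274 on the minus strand (GRCm38, ENSMUSG00000057329), and 558 exonic bases are shared with the antisense gene D630008O14Rik. Its long untranslated ends make the annotated exons 9157 bases long, the longest of the members.

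Bcl2l1 gives BCL-XL, the pro-survival protein that guards epithelial cells and platelets, and by alternative splicing the short form BCL-XS with the opposite action. The libraries held 34.8, 36.3 and 38.0 CPM in I/R and 52.6, 54.2 and 49.7 CPM with chemerin-9, with a clear gap between the groups. The mean rose from 36.4 ± 1.58 to 52.1 ± 2.24 CPM (log2 ratio 0.52 ± 0.062 SE, edgeR adjusted p = 6.7e-06), or 1.43-fold. Counts per gene cannot separate its splice forms. The gene lies at chr2:152780668-152831728 on the minus strand (ENSMUSG00000007659).

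Mcl1, a short-lived pro-survival protein that binds BIM, NOXA and BAK, did not follow the other pair. Its level was 147, 144 and 142 CPM in I/R and 145, 138 and 151 CPM with chemerin-9, and the groups overlapped fully. The log2 ratio was 0.0025 (95% interval -0.088 to 0.093, adjusted p = 0.97, edgeR), so a change of more than about 0.09 in either direction lies outside the interval. Mcl1 was the most abundant member in every library, above 88.2% of all tested genes in mean CPM. It lies at chr3:95658788-95663176 on the plus strand (ENSMUSG00000038612).

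Bax encodes the effector that moves from the cytosol to the mitochondrion when activated. Its level was 14.2, 13.2 and 20.4 CPM in I/R and 8.19, 11.1 and 10.3 CPM with chemerin-9. The groups did not overlap, but I/R replicate 3 stood well above the other I/R libraries. The mean fell from 15.9 ± 3.89 to 9.87 ± 1.51 CPM (log2 ratio -0.69 ± 0.16 SE, edgeR adjusted p = 0.0023). Without I/R replicate 3 the log2 ratio was -0.46 (adjusted p = 0.0039), so the size of the fall rests in part on that library while the call does not. The gene lies at chr7:45461697-45466898 on the minus strand (ENSMUSG00000003873) and shares 192 exonic bases with Gm45808 on the same strand.

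Bak1, the effector that resides on the mitochondrion and is held there by MCL1 and BCL-XL, was at 52.0, 49.6 and 54.5 CPM in I/R and 42.1, 54.7 and 48.2 CPM with chemerin-9. The treated libraries spread over the whole I/R range and below it. The log2 ratio was -0.10 (95% interval -0.27 to 0.066, adjusted p = 0.29, edgeR). Without chemerin-9 replicate 2, the highest treated library, it was -0.20 and passed (adjusted p = 0.047). Bak1 lies at chr17:27019810-27029009 on the minus strand (ENSMUSG00000057789), with 177 and 437 exonic bases shared with 2 annotated genes named Ggnbp1 on the other strand.

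Bbc3 encodes PUMA, a BH3-only protein that binds every pro-survival member and is a classical p53 target. Its level was 10.6, 8.25 and 10.9 CPM in I/R and 4.27, 4.57 and 4.62 CPM with chemerin-9. The treated libraries lay far under the lowest I/R library. On 49, 62 and 66 counts they lay closer together than counting error would give, so that closeness is no measure of precision. The mean fell from 9.89 ± 1.43 to 4.49 ± 0.188 CPM (log2 ratio -1.14 ± 0.15 SE, edgeR adjusted p = 2.0e-05), to 0.454 of its I/R level. This was the largest change of any tested member and exceeded that of 95.6% of tested genes. Leaving out any 1 library kept it between -1.26 and -1.06. Bbc3 lies at chr7:16308393-16318205 on the plus strand (ENSMUSG00000002083), and its printed window falls in an intron of one of its GENCODE transcripts.

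Bcl2l11 encodes BIM, the BH3-only protein that responds to loss of growth factors and is raised by FOXO factors. Its level was 18.6, 21.3 and 18.6 CPM in I/R and 14.2, 14.2 and 14.3 CPM with chemerin-9. All treated libraries lay under all I/R libraries. The mean fell from 19.5 ± 1.53 to 14.2 ± 0.0329 CPM (log2 ratio -0.45 ± 0.096 SE, edgeR adjusted p = 0.0011). That treated SD is smaller than counting error on 163 to 204 counts would give, so it is no measure of precision. The gene lies at chr2:128126038-128162547 on the plus strand (ENSMUSG00000027381).

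Bid links death receptors to the mitochondrion once caspase-8 cuts its protein, and it was the BH3-only gene that rose. Its level was 21.1, 20.6 and 23.6 CPM in I/R and 25.0, 27.6 and 26.9 CPM with chemerin-9. The gap between the groups was narrow. The mean rose from 21.8 ± 1.58 to 26.5 ± 1.35 CPM (log2 ratio 0.28 ± 0.084 SE, edgeR adjusted p = 0.011), or 1.22-fold. The call was lost without chemerin-9 replicate 2 (adjusted p = 0.053). Bid (chr6:120891930-120916853, minus strand, ENSMUSG00000004446) shares 628 exonic bases with Bcl2l13 on the other strand, and Bcl2l13 rose by a log2 ratio of 0.10 (adjusted p = 0.045, edgeR).

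Bad and Pmaip1 were the scarce members. Bad, a sensitiser that survival kinases switch off by phosphorylation, had 11, 10 and 36 counts in I/R and 14, 24 and 20 with chemerin-9, or 0.861, 0.743 and 2.19 against 1.22, 1.77 and 1.40 CPM. I/R replicate 3 was the highest library of all, and the other I/R libraries were the lowest. The log2 ratio was 0.17 (95% interval -0.68 to 1.01, adjusted p = 0.75, edgeR), and 0.87 without that library (adjusted p = 0.097), so no direction can be given. Bad (chr19:6941861-6951899, plus strand, ENSMUSG00000024959) shares 524 exonic bases with Gpr137 on the other strand. Pmaip1, which encodes NOXA, the partner that directs MCL1 to degradation, had 5, 4 and 7 counts in I/R and 1, 0 and 4 with chemerin-9. Its summed rate with chemerin-9 was 0.339 of that in I/R (exact 95% interval 0.0972 to 0.969, counting error only), and it was under the filter on low counts. With no such filter its log2 ratio was -1.50 (edgeR adjusted p = 0.24). It lies on chromosome 18 (ENSMUSG00000024521).

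**Figure D2:**
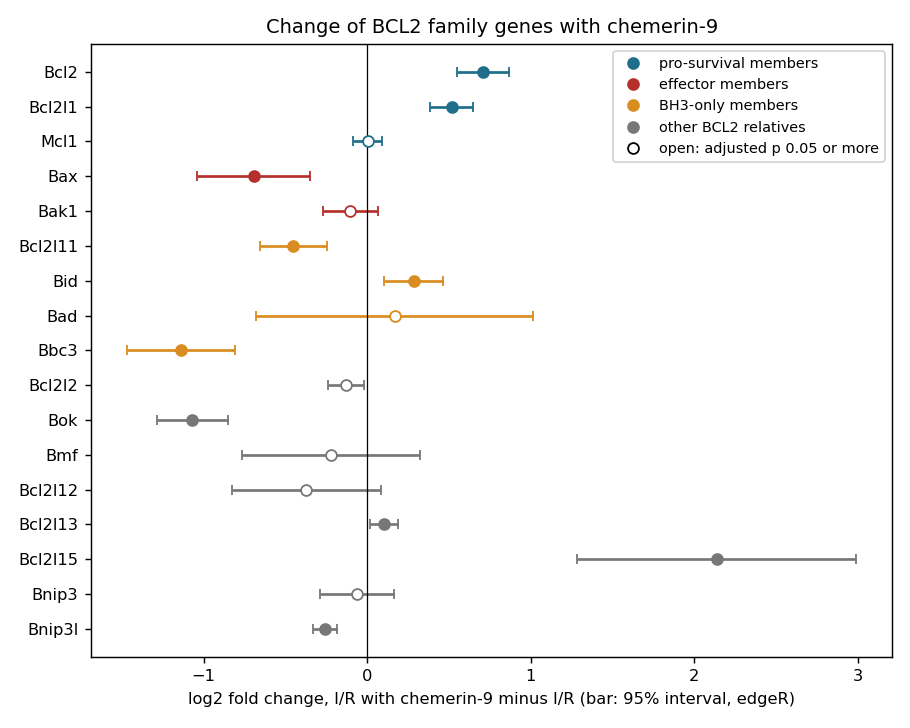
Log2 fold change with its 95% interval (edgeR) for the 9 tested members, coloured by role, and for 8 tested relatives (grey). Filled points passed an adjusted p under 0.05. Bcl2 and Bcl2l1 lie to the right of 0, Bax, Bcl2l11, Bbc3 and the relative Bok to the left, and the intervals of Mcl1, Bak1 and Bad span 0.

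To compare genes with each other, CPM was divided by the length of the annotated exons in kb. On that scale the order in I/R was Mcl1 (42.3 ± 0.725 CPM per kb), Bak1 (21.6 ± 1.03), Bax (10.1 ± 2.47), Bcl2l1 (7.93 ± 0.344), Bid (6.13 ± 0.444), Bbc3 (4.66 ± 0.675), Bcl2 (2.56 ± 0.152), Bcl2l11 (2.43 ± 0.190), Bad (0.494 ± 0.313) and Pmaip1 (0.136 ± 0.0242). Of these neighbours, Bcl2 and Bcl2l11 overlapped between libraries and the others did not. With chemerin-9 Bcl2l1 (11.4 ± 0.489 CPM per kb) stood above both Bid (7.46 ± 0.380) and Bax (6.26 ± 0.959), and Bid and Bax overlapped. Bcl2 (4.18 ± 0.202 CPM per kb) stood above Bbc3 (2.11 ± 0.0883), which it had been under in I/R. The order depends on the length used: with the longest coding transcript, 5 of the 10 members kept their rank in both groups.

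Ratios within a library cancel its scaling. Bcl2l1 RNA per kb was 0.845, 0.944 and 0.640 of that of Bax in the I/R libraries and 2.21, 1.67 and 1.66 times that of Bax with chemerin-9. The groups did not overlap. Whether a ratio lies above 1 depends on the length used: by the longest coding transcript it was 1.01 ± 0.193 in I/R and 2.30 ± 0.387 with chemerin-9, and 2 of the 3 I/R libraries were above 1 as well. The ratio of Bcl2 to Bax was 0.265 ± 0.0709 in I/R and 0.680 ± 0.123 with chemerin-9, and that of Mcl1 to Bax 4.35 ± 0.982 and 6.89 ± 1.22, with no overlap for either. I/R replicate 3, the library high in Bax, gave the lowest value of each of these 3 ratios. Against Bak1, the ratio of Bcl2l1 went from 0.367 ± 0.0166 to 0.572 ± 0.0727 and that of Bcl2 from 0.119 ± 0.0124 to 0.211 ± 0.0333, again without overlap. The Mcl1 to Bak1 ratio was 1.96 ± 0.108 and 2.14 ± 0.329, and there the groups overlapped. These ratios are descriptions, since their members were chosen with results of these data known.

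**Figure D3:**
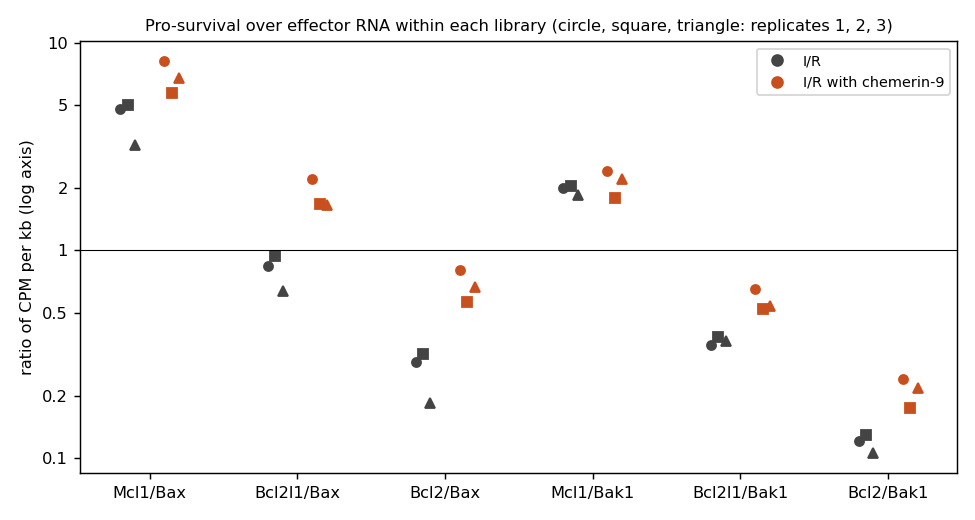
Ratio of pro-survival to effector RNA (CPM per kb, log axis) within each of the 6 libraries, grey for I/R and orange for I/R with chemerin-9. For 5 of the 6 pairs the treated libraries lie above the I/R libraries, and for Mcl1 over Bak1 they overlap.

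Summed by role, the pro-survival members held 53.3, 52.8 and 52.3 CPM per kb in I/R and 58.0, 56.2 and 59.5 with chemerin-9. Mcl1 made up 80.1% ± 0.637 of that sum in I/R and 73.1% ± 1.26 with chemerin-9, so the sum moved less than Bcl2 and Bcl2l1 did. The sums by role cover the members only. Outside them are the pro-survival relative Bcl2l2 (65.97 CPM in I/R and 60.35 with chemerin-9, 4462 exonic bases) and the effector-like Bok (19.2 and 9.13 CPM, 1840 exonic bases). The sums, shares and ratios would differ with these 2 relatives included. The 2 effectors summed to 30.6, 29.0 and 35.6 CPM per kb in I/R and 22.7, 29.8 and 26.5 with chemerin-9, and these overlapped. The pro-survival sum was 1.68 ± 0.184 times the effector sum in I/R and 2.23 ± 0.336 times with chemerin-9. The highest I/R library, at 1.82, was just under the lowest treated library, at 1.89.

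The BH3-only pool changed in make-up more than in size. It summed to 13.7, 12.7 and 15.1 CPM per kb in I/R and 11.3, 12.4 and 12.2 with chemerin-9, a narrow gap. By the longest coding transcript the sums were 19.9, 18.8 and 22.0 against 17.4, 19.1 and 18.7 CPM per kb, and the groups overlapped. Bid was 44.3% ± 1.13 of the pool in I/R and 62.4% ± 0.352 with chemerin-9, whereas Bbc3 was 33.6% ± 2.88 and 17.6% ± 0.268. As with its level, the small treated SD of the Bbc3 share is no measure of precision. Bcl2l11 held 17.7% ± 2.81 and 14.8% ± 0.690, with an overlap between the groups that was absent by the longest coding transcript. The BH3-only sum was 0.262 ± 0.0237 of the pro-survival sum in I/R and 0.207 ± 0.0128 with chemerin-9.

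**Figure D4:**
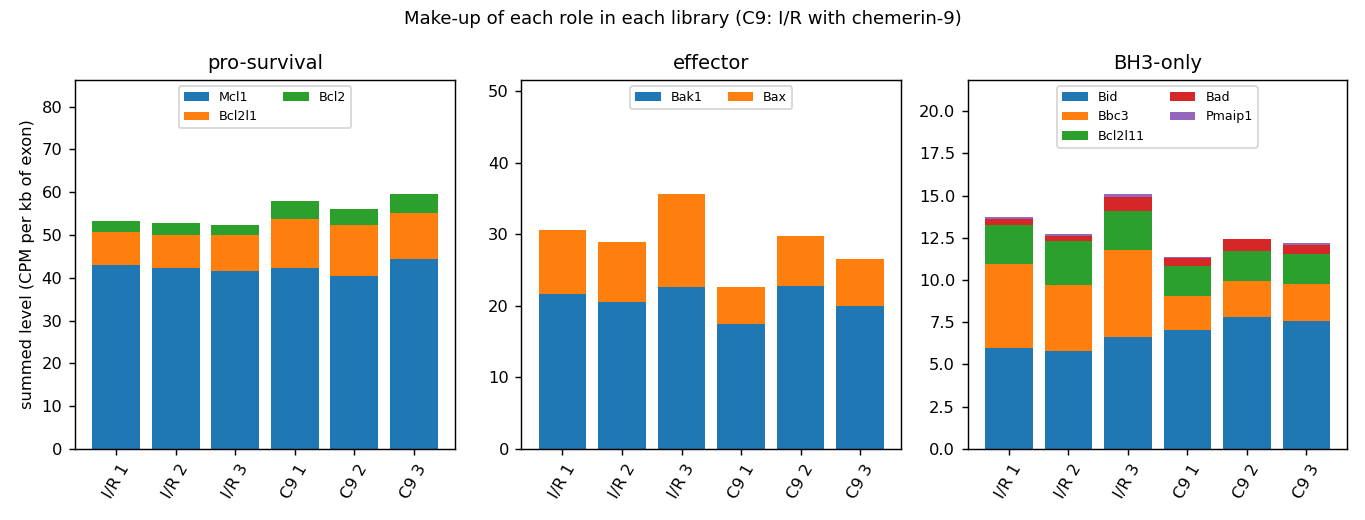
Stacked level of the members of each role (CPM per kb of exon, linear axes from 0) in each library. Mcl1 fills most of the pro-survival bars in all 6 libraries, and in the BH3-only bars Bid takes a larger and Bbc3 a smaller part in the 3 treated libraries (C9).

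Of 15 other relatives of the family, 10 had a row and 8 passed the filter. Of these, 2 rose and 2 fell, with a median log2 ratio of -0.18 against -0.0037 for all tested genes. The shares of all tested genes were 25.6% higher and 26.1% lower. Bok, an effector-like relative of BAX and BAK, fell from 19.2 ± 0.973 to 9.13 ± 0.397 CPM (log2 ratio -1.07 ± 0.10 SE, edgeR adjusted p = 6.7e-07), a change close in size to that of Bbc3. Bnip3l, a BH3-like protein of mitochondrial clearance, fell from 232 ± 4.02 to 194 ± 3.38 CPM. It has a near-identical processed copy, so its counts are uncertain. Bcl2l15, a weakly expressed relative, rose from 0.370 ± 0.0558 to 1.67 ± 0.464 CPM, on 4 to 7 counts per library in I/R. Bcl2l2, the pro-survival BCL-W, just missed the threshold (log2 ratio -0.13, edgeR adjusted p = 0.052).

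Downstream of the family, 5 of 10 tested genes of mitochondrial release and the apoptosome fell and 1 rose, with a median log2 ratio of -0.21. Across all tested genes 51.7% changed, 26.1% lower and 25.6% higher. Apaf1, the scaffold of the apoptosome, fell from 90.1 ± 6.61 to 63.1 ± 2.51 CPM (log2 ratio -0.51, edgeR adjusted p = 3.6e-06). Vdac3, a pore of the outer membrane, fell by 0.25 on the log2 scale, and Htra2, a released protease, by 0.40, though Htra2 overlaps Aup1 in sequence. Casp9, the caspase the apoptosome activates, fell from 15.1 ± 0.670 to 9.66 ± 1.73 CPM (log2 ratio -0.63, edgeR adjusted p = 7.2e-04). Casp2, an initiator caspase, rose by 0.12 on the log2 scale. That rise was lost with DESeq2 (adjusted p = 0.090) and without any 1 of 5 of the 6 libraries.

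Of the 5 caspase inhibitors, 2 were higher and 2 lower, against 25.6% and 26.1% of all tested genes. Birc6, a large ubiquitin ligase, just missed the threshold (log2 ratio 0.091, edgeR adjusted p = 0.051), and all 5 were called with several other settings, among them RLE factors and limma-voom. Birc5, survivin, which also serves chromosome segregation, fell from 142 ± 11.1 to 103 ± 3.75 CPM, and Birc2, a ubiquitin ligase, from 47.7 ± 0.678 to 40.5 ± 1.43 CPM. Birc3, its close relative, rose from 10.9 ± 1.33 to 14.8 ± 1.81 CPM. In the death receptor arm, which reaches the mitochondrion through Bid, 3 of 9 genes fell and 2 rose. Among all tested genes 26.1% fell and 25.6% rose. Tnfrsf10b, the mouse TRAIL receptor, fell from 67.3 ± 3.73 to 52.1 ± 1.63 CPM, on counts made uncertain by a near-identical sequence. The adaptors Traf2 and Fadd rose, from 62.0 ± 2.04 to 77.4 ± 2.19 and from 3.93 ± 0.371 to 7.26 ± 0.846 CPM. Casp8, whose protein cuts BID, was at 56.4 ± 1.36 and 56.2 ± 3.79 CPM (adjusted p = 0.96, edgeR).

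Among transcription factors known to act on family genes, with Mdm2 counted in as the brake on p53, 5 of the 11 tested fell and 1 rose. Their median was -0.055, and among all tested genes 26.1% fell and 25.6% rose. The 1 that rose was Nfkb1, from 105.6 ± 8.17 to 130.8 ± 3.80 CPM (log2 ratio 0.31, edgeR adjusted p = 1.7e-04). Atf4 and Ddit3, factors of the stress response that can raise BH3-only genes, fell from 856 ± 23.8 to 688 ± 9.68 and from 195 ± 4.87 to 156 ± 8.04 CPM. Foxo3, known to act on Bcl2l11 and Bbc3, fell from 69.8 ± 2.34 to 55.8 ± 1.23 CPM (log2 ratio -0.32, edgeR adjusted p = 8.9e-05). Foxo1 did not pass (log2 ratio 0.11, edgeR adjusted p = 0.31). Trp53, which encodes p53, did not pass (164 ± 8.05 and 158 ± 3.52 CPM, log2 ratio -0.055, edgeR adjusted p = 0.30). Neither did Mdm2, its target and brake, at 137 ± 2.08 and 136 ± 2.92 CPM (adjusted p = 0.97, edgeR). RNA levels do not give the activity of these factors.

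Genes that act on family proteins after translation were measured as RNA too. Of 5 ubiquitin genes listed for MCL1 turnover, 3 rose and none fell, with a median log2 ratio of 0.11, where 25.6% of all tested genes rose. The list was not sorted by the direction in which each gene acts, so the count gives no direction for MCL1 turnover. Cul5, a ligase scaffold, rose from 148 ± 8.08 to 208 ± 7.83 CPM and the mitochondrial ligase gene Marchf5 from 130 ± 4.25 to 154 ± 2.34 CPM. Huwe1, the MULE ligase, had a log2 ratio of 0.11 (adjusted p = 0.010, edgeR), which was 4.7e-05 (edgeR adjusted p = 0.998) once a trend over base composition and length was taken out. Of 15 kinases and 14-3-3 proteins that act on BAD, 3 rose and 6 fell, against 25.6% and 26.1% of all tested genes. Within the 14-3-3 genes Ywhae rose from 731 ± 8.68 to 929 ± 6.07 CPM, while on the log2 scale Ywhah fell by 0.48 and Ywhag fell by 0.40. In the TMBIM family of BAX-inhibitor relatives 3 of 4 fell, against 26.1% of all tested genes. Ghitm fell from 1086 ± 4.35 to 955 ± 15.7 CPM, while on the log2 scale Tmbim1 fell by 0.28 and Tmbim6 fell by 0.14. Tmbim1 shares sequence with Gm29358, which lies within it, so its counts are uncertain.

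**Figure D5:**
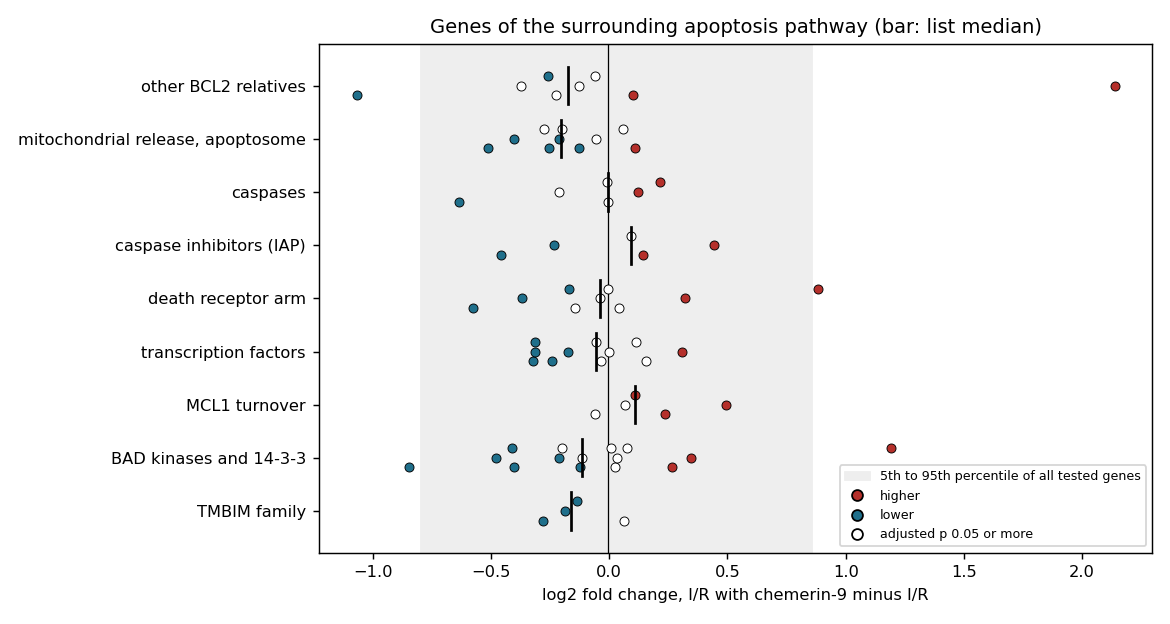
Log2 fold change of each tested gene in 9 lists of the surrounding pathway (points, red for higher and blue for lower at an adjusted p under 0.05, open otherwise), with the median of each list as a bar and the 5th to 95th percentile of all tested genes as a grey band (-0.80 to 0.86). Most points lie inside the band, and Bok, Pim1, Fadd, Sfn and Bcl2l15 lie outside it.

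Over all 9 lists, 72 of 81 genes were tested, and 43 changed, 16 higher and 27 lower. The background is 51.7% changed, 25.6% higher and 26.1% lower. The median log2 ratio was -0.089. The share that changed is near the background, so the count of changed genes does not set the pathway apart. Lower genes were a larger part of the lists than of all tested genes, and higher genes a smaller part. The lists were chosen with earlier results of these data known, and this lean was not tested.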

How the data were processed

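The authors deposited one table of raw counts per gene symbol for 6 libraries. Per the submitters' processing notes it was made with HISAT2, HTSeq and the build mm10. The library kit is stranded per the labels' protocols, while for the counting the annotation release and the strand setting were not given in the sources used here. Counts over exons shared with a gene on the other strand are therefore uncertain. As deposited, the table also holds the authors' own comparison, namely a p-value, an FDR, a ratio of group means and its log2, and DESeq 1.18.1 is named in those notes. Groups follow the sample titles. The treatment field reads C9, C10 and C11 for the treated samples. The treated columns are named IC, which was read as I/R with C9. The labels name S columns instead, so that reading could not be checked.

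Of 25216 rows, 27 repeated a symbol with the same counts and were removed. Coordinates were matched to GENCODE M21 (GRCm38), where 95.9% of 22908 matched genes had the same start. The test was that of edgeR 4.0.16 under R 4.3.3 (TMM, filterByExpr, quasi-likelihood fit on group alone, Benjamini-Hochberg over 14184 genes, threshold 0.05). The standard error is the log2 ratio over the root of the F statistic. The biological coefficient of variation was 5.18%. CPM uses the TMM-scaled library size. No member had a near-identical copy in a BLAST 2.17.0 search (95% identity, at least 200 bases and 50% of the shorter transcript), and 4 of 27 other named genes did. The alternatives were RLE and upper quartile factors, DESeq2 1.42.0, limma-voom (limma 3.58.1), other filters, the replicate block, each library left out, no mitochondrial genes and a threshold of 0.01. One with the trend on GC content and length removed, for 96.2% of tested genes, was chosen after seeing the data. The procedures were also run on simulated data in which a far smaller share of genes changed than was called here. That setting differs from these data, so the run is no support for the calls. The members and lists were chosen with earlier results of these data known. The rule for named genes took all members, the 3 genes with the smallest p of each list, and list genes whose role bears on a member, given with their values. Bcl2l2, Birc6, Nfkb1, Foxo1, Pim1, Sfn and the markers given with values were named after their values were seen. Some genes of the lists are not reported here.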

Additional observations from a re-analysis of the deposited data

How the results depend on the processing

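Bcl2, Bcl2l1, Bax, Bcl2l11 and Bbc3 kept their direction and an adjusted p under 0.05 under every alternative that tested them, with log2 fold changes of 0.61 to 0.74, 0.48 to 0.60, -0.82 to -0.46, -0.50 to -0.39 and -1.26 to -0.97. Bbc3 and Bad were not tested with a minimum of 10 CPM in 3 libraries, and Pmaip1 only with no filter. For members that did not pass in the first place, signs moved around 0. Mcl1 had -0.020 with the GC and length trend removed, -0.0027 with no filter on low counts and -0.0010 without mitochondrial genes, and -0.034 to 0.034 without single libraries. Bad ranged from -0.098 to 0.87 and Bak1 from -0.20 to -0.022 without single libraries. Bid ranged from 0.24 to 0.35 without single libraries, and its rise of 0.28 did not pass a threshold of 0.01. At that threshold 9 list genes were higher in place of 16. By the longest coding transcript, 5 members kept their rank, and the BH3-only sum was 0.339 of the pro-survival sum in I/R and 0.271 with chemerin-9. The number of members called was 5 or 6 throughout. The replicate numbers did not pair the libraries (correlations of deviations 0.102, -0.052 and 0.042 for numbers 1, 2 and 3). With the replicate block 6 members and 7300 genes were called, against 7336 without it, and Casp2 did not pass (adjusted p = 0.0503). Bad and Pmaip1 rest on 0 to 36 counts per library, which limits the precision of both.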
